A study of Mus musculus with 8 samples.

Results

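The secretoglobin genes followed here are Scgb1b20, Scgb1b3 and Scgb2b20, which encode subunits of mouse androgen-binding protein, and Scgb1a1 and Scgb3a1, which encode secretoglobins best known from the airway. These 5 of the 55335 genes in the files were found by their Ensembl identifiers. They were picked on their levels in these same libraries, because several were higher in the PPK sham group and at 0 under ADT, so their levels are given as a description with no test. The annotation holds 69 genes whose symbol starts with Scgb, and the other 64 are used for comparison.

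RNA came from mouse prostate epithelium sorted as EpCAM+, CD24a+ and CD49f-low cells, per the design text, and was sequenced in 8 libraries, 2 per group. All mice shared the prostate genotype written PP, the controls included, and PPK mice carried Kmt2cPC-/- in addition. PP sham and PPK sham mice were 3.5 months old, whereas PP ADT and PPK ADT mice were 6.5 months old. ADT commonly stands for androgen deprivation therapy, whose method is not in the labels. Age and treatment thus changed together and cannot be told apart. The labels name no promoter or Cre and do not say whether libraries A and B came from separate animals, so p-values cover the spread between the sequenced libraries alone, which may be technical.

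Secretoglobins are small secreted proteins that work as dimers with a pocket for hydrophobic ligands. In mouse androgen-binding protein, an alpha subunit encoded by an Scgb1b gene is joined by disulfide bonds to a beta-gamma subunit encoded by an Scgb2b gene. The genes of both subunits lie head to head in repeated modules on chromosome 7. The proteins are known from mouse saliva and tears, where they have been studied in mate choice, and their name comes from the binding of androgens. Scgb1a1 encodes the club cell secretory protein, also called uteroglobin, and Scgb3a1 encodes a secretoglobin of large airways.

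Levels are FPKM, fragments scaled to gene length and library size, as the authors deposited them. For the androgen-binding protein genes an FPKM depends on how reads were divided among near-identical copies, a step that the sources used here do not describe. The sequences of coding exon 2 show how close the copies are. Each runs 5′ to 3′ on the coding strand, was read from GENCODE M21 transcripts on GRCm38, and has capitals where it differs from the first sequence of its subfamily. The alpha subunit genes shown are Scgb1b20 (chr7:33373433-33373620, plus strand) and Scgb1b3 (chr7:31375791-31375978, plus strand).
Scgb1b20: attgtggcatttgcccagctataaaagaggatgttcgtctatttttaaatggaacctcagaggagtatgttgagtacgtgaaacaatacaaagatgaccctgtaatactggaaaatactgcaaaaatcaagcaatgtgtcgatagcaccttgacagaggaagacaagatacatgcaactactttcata
Scgb1b3: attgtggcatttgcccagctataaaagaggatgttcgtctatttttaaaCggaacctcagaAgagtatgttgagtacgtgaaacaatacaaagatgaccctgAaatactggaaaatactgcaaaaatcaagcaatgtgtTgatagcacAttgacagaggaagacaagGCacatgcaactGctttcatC
The beta-gamma subunit genes shown are Scgb2b20 (chr7:33365593-33365774, minus strand) and Scgb2b7 (chr7:31705031-31705212, minus strand), its close relative.
Scgb2b20: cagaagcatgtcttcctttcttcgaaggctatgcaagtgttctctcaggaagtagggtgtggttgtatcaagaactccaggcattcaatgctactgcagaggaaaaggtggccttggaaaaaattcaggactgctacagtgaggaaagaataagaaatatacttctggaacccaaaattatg
Scgb2b7: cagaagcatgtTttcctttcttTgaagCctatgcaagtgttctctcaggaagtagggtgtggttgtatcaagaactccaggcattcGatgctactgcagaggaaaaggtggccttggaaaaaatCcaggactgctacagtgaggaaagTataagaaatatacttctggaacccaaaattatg
Scgb1b3 differed from Scgb1b20 at 9 of 188 bases (95.2% identity), and Scgb2b7 from Scgb2b20 at 6 of 182 bases (96.7% identity). Exon 2 of Scgb1b7 and of Scgb1b29 had 0 differences from that of Scgb1b20, so a fragment within it cannot be assigned to 1 of these 3 genes.

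Over whole transcripts, the share of 50-base stretches found in no other annotated gene was 42.5% for Scgb1b20, 42.0% for Scgb2b20 and 72.2% for Scgb1b3. With 100-base stretches it was 58.4%, 78.3% and 95.3%. Scgb1a1 and Scgb3a1 held 100% at both lengths, so their levels do not depend on such a division. At the other end, Scgb2b15, Scgb2b17 and Scgb1b29 had 0% at both lengths. Of the 50-base stretches of Scgb2b7, 44.2% were found in no other gene and 51.6% also occurred in one of the 5 genes followed here.

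**Figure D1:**
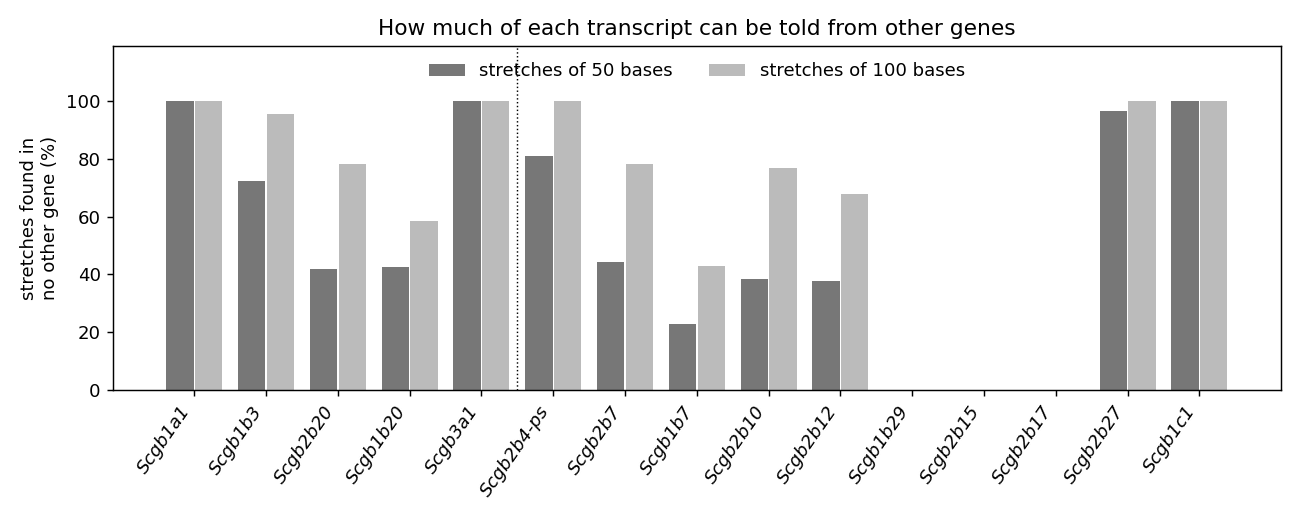
Share of the 50-base (dark bars) and 100-base (light bars) stretches of each gene's transcripts that occur in no other annotated gene (y axis, percent), for the 5 genes followed here (left of the dotted line) and the other Scgb genes with at least 1 FPKM in a library. Scgb1a1 and Scgb3a1 reach 100%, Scgb1b20 42.5% and Scgb2b20 42.0% with 50 bases, and Scgb2b15, Scgb2b17 and Scgb1b29 stand at 0%.

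Kmt2c, the histone methyltransferase gene deleted in PPK mice, had FPKM of 13.3 and 13.9 in PP sham, 8.67 and 8.15 in PPK sham, 10.3 and 9.33 in PP ADT, and 6.60 and 6.36 in PPK ADT. It was lower in PPK sham than in PP sham by a log2 fold change of -0.63 ± 0.066 (SE, limma adjusted p = 0.000795), lower but not absent, and the labels do not say which part of the gene was deleted. The files hold no counts, so depth is not known. A rough estimate from the commonest low value of genes with 1 transcript was 17600000 to 25100000 fragments per library. Of the 14000 genes tested, 28.6% differed between the sham groups, 59.6% between the ADT groups, 44.2% (PP) and 62.6% (PPK) with ADT and age, and 52.8% in the difference of both genotype effects. Of the epithelial markers of the sort, Epcam, Cd24a, Krt8 and Krt18 were above 0 in every group, but PPK ADT stood apart: the 6 markers summed to 1906 to 1923 FPKM there against 3834 to 5239 in the other groups, and Krt8 was at 294 and 286 FPKM against 1263 to 1883.

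Scgb1b20 (ENSMUSG00000094978, chr7:33373234-33374559, plus strand, GRCm38) encodes an alpha subunit. The PP sham libraries held 0.590 and 0.956 FPKM, the PPK sham libraries 25.2 and 21.0, and all 4 ADT libraries listed it at 0. Both PPK sham libraries were far above both PP sham libraries, with group means of 23.1 ± 2.96 and 0.773 ± 0.259 FPKM (SD, n = 2 each), a ratio of 29.9. The log2 difference of FPKM + 1 was 3.77. By the rough depth estimate this is 165 to 187 fragments in the PPK sham libraries and 6.23 to 8.34 in PP sham, so the PP sham level rests on few fragments. Fewer cells that make the RNA and less RNA per cell cannot be told apart in bulk libraries, here and for every gene below.

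Scgb2b20 (ENSMUSG00000094305, chr7:33364343-33366322, minus strand) encodes a beta-gamma subunit and lies head to head with Scgb1b20. Its level was 2.39 and 2.95 FPKM in PP sham, 31.3 and 25.2 in PPK sham, and 0 in all 4 ADT libraries. The group means were 2.67 ± 0.394 and 28.2 ± 4.29 FPKM, a ratio of 10.6, and the log2 difference was 2.99. In PP sham both libraries had more Scgb2b20 than Scgb1b20 per length. So did both PPK sham libraries, with 31.3 against 25.2 FPKM in replicate A and 25.2 against 21.0 in replicate B.

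Scgb1b3 (ENSMUSG00000095257, chr7:31375592-31376916, plus strand), an alpha subunit gene elsewhere in the same cluster, had no level above 0 in PP sham. It stood at 6.15 and 5.17 FPKM in PPK sham and at 0 in all 4 ADT libraries. PPK sham was thus the only group with a level, and a fold is not given against a group at 0.

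Scgb1a1 (ENSMUSG00000024653, chr19:9083636-9087958, minus strand) had another pattern. It was listed at 0 in PP sham and PP ADT, and stood at 1.16 and 1.13 FPKM in PPK sham and at 0.805 and 1.39 in PPK ADT. The PPK sham mean of 1.14 ± 0.0191 FPKM lay within the range of the PPK ADT pair. Scgb1a1 thus followed the genotype in these libraries and was not at 0 under ADT, unlike the chromosome 7 genes. The level is low in all 4 PPK libraries, an estimated 7.21 to 12.6 fragments.

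Scgb3a1 (ENSMUSG00000064057, chr11:49663610-49665118, plus strand) stayed below 0.5 FPKM throughout. Its levels were 0.134 and 0.307 FPKM in PP sham, 0.116 and 0.441 in PPK sham, 0.445 and 0 in PP ADT, and 0.276 and 0 in PPK ADT. These are at most an estimated 5.02 fragments, all 4 groups overlapped, and no order can be read from them.

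**Figure D2:**
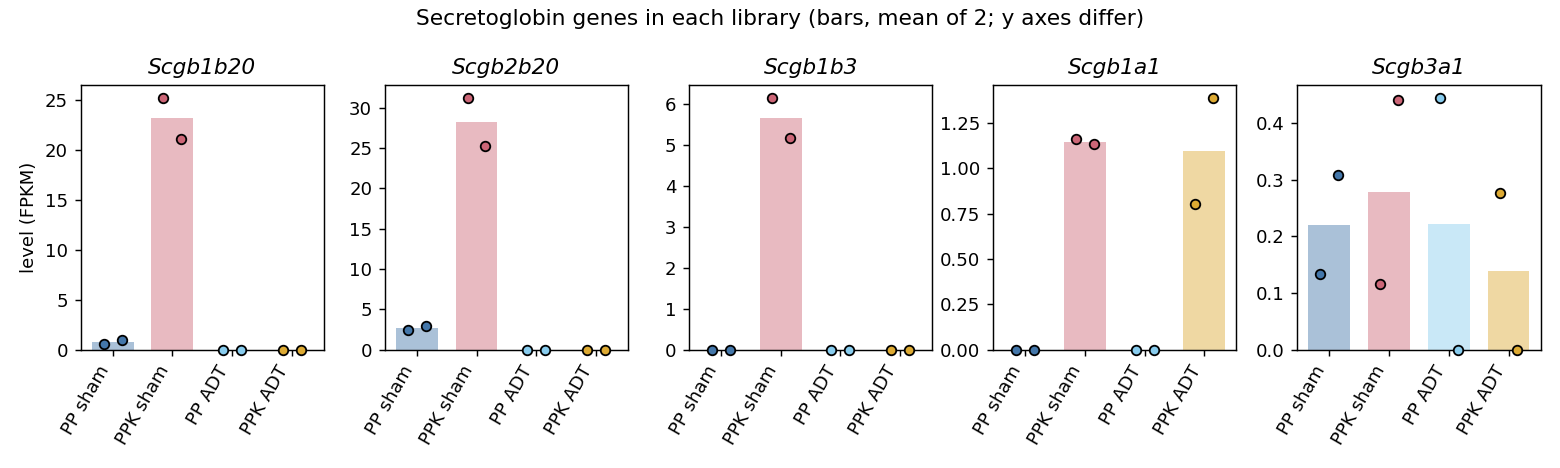
Level (y axis, FPKM, with a different scale in each panel) of the 5 secretoglobin genes in the 2 libraries of each group (points), with the group mean as a bar. Scgb1b20, Scgb2b20 and Scgb1b3 are high in PPK sham and at 0 in the 4 ADT libraries, Scgb1a1 is above 0 in the 4 PPK libraries, and Scgb3a1 overlaps between groups.

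Of the 5 genes, 4 were higher in both PPK sham libraries than in both PP sham libraries, and 30.5% of the 14000 genes tested were too. That count was fixed by how the genes were picked. Among 13535 genes with at least 1 FPKM in a sham library, 60 (0.443%) were listed at 0 in all 4 ADT libraries, 3 of the 5 among them. Both properties held for 21 genes (0.155%). The pick used these properties, so the count is not a result about the family. Of the 21, 10 were Scgb genes, among them 3 picked genes and others that share stretches with these, and 11 were not Scgb genes. Named after their values were seen, the latter include the seminal vesicle genes Svs3a, Svs3b and Svs6, the odorant-binding protein gene Obp2a, the kallikrein gene Klk1b27 and the blood group transferase gene Abo. Over the 8 libraries, log2 levels of Scgb1b20 correlated with those of Scgb2b20 at r = 0.98 and of Scgb1b3 at r = 0.98, whereas Scgb1a1 reached 0.40 to 0.59 with these 3. These correlations share 4 libraries at 0 and, for the paralogs, reads.

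Most of the family was not read. The cluster on chromosome 7 spans 31255891 to 34100837 (2.84 Mb) and holds 31 Scgb1b and 33 Scgb2b genes, of which 35 are annotated as pseudogenes. Of these 64 genes, 48 were at 0 in all 8 libraries and 12 reached 1 FPKM in at least 1 library. All 12 did so in both PPK sham libraries, and 4 in both PP sham libraries. Of the 64, 14 were higher in both PPK sham libraries than in both PP sham libraries, and 0 the other way. The 30.5% of all tested genes that were higher in that sense is not a like share, because the 48 genes at 0 cannot be higher. Of the 12 genes that passed the filter, those outside the 4 passed it only with the PPK sham libraries. Neither share is thus a result about the cluster. Outside the cluster, Scgb3a2, of the same subfamily as Scgb3a1, was at 0 in all 8 libraries, and Scgb1c1 was read at 0.881 and 2.02 FPKM in PPK ADT, 0 and 0.990 in PP ADT, and below 0.35 in the sham libraries.

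Scgb2b7 stood at 6.01 and 4.85 FPKM in PP sham, with the highest mean of the cluster there (5.43), and at 15.2 and 18.0 FPKM in PPK sham, where its mean came after those of Scgb2b20 and Scgb1b20. In the ADT libraries it was at 0 in 3 and at 0.203 FPKM in PP ADT replicate B. Scgb2b15 stood at 2.65 and 4.48 FPKM in PP sham against 11.7 and 12.4 in PPK sham, and Scgb2b17 at 2.11 and 4.85 against 12.9 and 14.5, both at 0 in all ADT libraries. These 3 were already above 1 FPKM in both PP sham libraries, so the filter on low values did not depend on PPK sham, and all 3 rose: log2 fold changes were 1.46 ± 0.14 for Scgb2b7, 1.55 ± 0.18 for Scgb2b15 and 1.78 ± 0.27 for Scgb2b17 (SE, limma adjusted p = 0.000564, 0.00121 and 0.00365), where 13.7% of tested genes were higher. These tests are not independent of the genes above or of each other, since Scgb2b15 and Scgb2b17 hold no 50-base stretch of their own. With a pseudocount of 0.1 FPKM the Scgb2b7 change no longer passed (adjusted p = 0.0538).

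The remaining genes with 1 FPKM or more were low in PP sham. In PPK sham they ranged from 2.12 and 2.66 FPKM for Scgb2b10 to 7.79 and 8.33 for Scgb2b4-ps, a pseudogene. Scgb1b29 (5.48 and 4.23 FPKM) and Scgb1b7 (4.71 and 3.32), the alpha subunit genes that share exon 2 with Scgb1b20, were at or below 0.129 FPKM in PP sham. Scgb2b27, whose transcript is 96.5% distinguishable with 50-base stretches, stood at 0.660 and 0.545 FPKM in PP sham and 5.27 and 4.58 in PPK sham, and in ADT at 0.0338 FPKM in 1 library and 0 in 3. Its own alpha partner Scgb1b27, at 0.673 and 0.626 FPKM in PPK sham, was at 0 elsewhere.

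**Figure D3:**
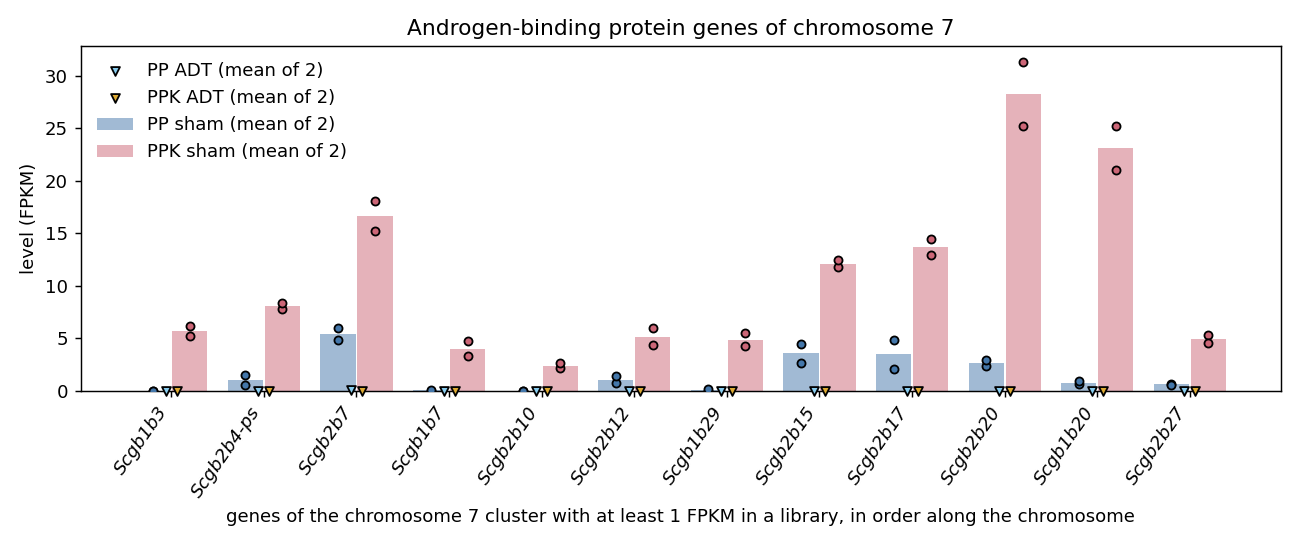
Level (y axis, FPKM) of the 12 genes of the chromosome 7 cluster with at least 1 FPKM in a library, in order along the chromosome (x axis). Bars are means and points single libraries of PP sham (blue) and PPK sham (red), and triangles are ADT means. All 12 are higher in PPK sham, Scgb2b20 and Scgb1b20 stand highest at 28.2 and 23.1 FPKM, and the ADT means lie at or near 0.

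Sums over a subfamily depend less on how reads were split among its copies. The Scgb1b genes summed to 0.865 and 1.18 FPKM in PP sham and to 42.2 and 34.4 in PPK sham, a ratio of means of 37.4, and to 0 in all ADT libraries. The Scgb2b genes summed to 16.1 and 19.6 FPKM in PP sham and to 93.7 and 90.4 in PPK sham, a ratio of 5.17, and to at most 0.203 in ADT. The alpha subunit genes thus made up a smaller part of the cluster sum in PP sham than in PPK sham. Scgb1b20, Scgb2b20 and Scgb1b3 together took 17.6 and 18.8% of the cluster sum in PP sham and 46.1 and 41.2% in PPK sham. As the picked genes are within these sums, no test is given.

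Few head-to-head modules had a level for both genes. Of 26 same-numbered Scgb1b and Scgb2b genes, 22 lay head to head with 4486 to 13519 bases between them. Each gene was above 0 in some library, not always the same one, in 4 modules, the Scgb2b gene alone in 5, the Scgb1b gene alone in 1 and neither in 12. Among the 4, Scgb1b10 and Scgb2b10 had no level in the same library. Scgb1b10 was above 0 in PP sham replicate A alone (0.275 FPKM), and Scgb2b10 in PPK sham alone (2.12 and 2.66). Scgb2b15 and Scgb2b17, in 2 of the 5, cannot be told apart, and whether reads of a gene at 0 were assigned to another copy was not tested. The single module with the alpha gene alone was that of Scgb1b3, whose partner Scgb2b3 was at 0 in all 8 libraries. Of 17 tested protein-coding genes within 500 kb of the ends of the cluster, 1 was higher in PPK sham and 0 were lower. Of all tested genes, 13.7% were higher and 14.9% lower. That gene was Gpi1, a glycolytic isomerase gene named after its value was seen (0.28 on the log2 scale, limma adjusted p = 0.00824), and the median of the 17 was -0.0039 against -0.015 for all tested genes.

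Promoters from RefSeq (GRCm38.p6, 250 bases before to 50 after the gene start) were at hand for Scgb2b20 and Scgb3a1 of the 5 genes and for 32 of the 69 Scgb genes. Scgb2b20, expressed in sham mice, and Scgb2b18, at 0 in all 8 libraries, are shown because they are 96.0% identical. Capitals mark the half-site AGAACA of androgen and glucocorticoid receptors, searched on both strands and here found as its reverse complement. The Scgb2b20 promoter is chr7:33366270-33366569 and that of Scgb2b18 chr7:33173812-33174111, both on the minus strand and written 5′ to 3′ on it.
Scgb2b20: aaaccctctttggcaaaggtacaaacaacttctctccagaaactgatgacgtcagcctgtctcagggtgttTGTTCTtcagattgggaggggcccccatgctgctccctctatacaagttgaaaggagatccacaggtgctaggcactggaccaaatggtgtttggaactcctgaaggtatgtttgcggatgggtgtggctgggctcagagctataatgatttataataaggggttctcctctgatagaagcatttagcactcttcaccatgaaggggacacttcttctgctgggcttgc
Scgb2b18: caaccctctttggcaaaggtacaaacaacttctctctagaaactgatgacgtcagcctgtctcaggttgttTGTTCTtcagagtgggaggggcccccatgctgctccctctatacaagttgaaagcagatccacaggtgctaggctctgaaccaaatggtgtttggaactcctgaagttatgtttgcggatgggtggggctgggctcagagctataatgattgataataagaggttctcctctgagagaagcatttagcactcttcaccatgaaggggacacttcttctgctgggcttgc
The half-site began at position -179 from the gene start in both. It was present in 16 of 20 Scgb2b promoters, in 7 of the 8 whose gene reached 1 FPKM and in 7 of the 10 whose gene was at 0 throughout, against 19.0% of all 32851 promoters. The letters TATAAA (both strands) were in 17 of 20 Scgb2b promoters, in 8 of 8 and 7 of 10 of the same classes, against 13.6% of all. Of the promoters shown, that of Scgb2b20 holds them, as the reverse complement TTTATA, and that of Scgb2b18 does not. The part of this difference in the levels was not tested. The forkhead letters TGTTTAC (both strands) were in 0 of 20, against 3.65% of all. The copies resemble each other, so these counts are not independent, and the half-site was present in copies at 0 as well as in copies with a level. Scgb2b18 shares 50-base stretches with Scgb2b20, and whether reads of a copy at 0 were assigned to another copy was not tested.

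Other secretory genes of the prostate that depend on androgen were mostly lower in PPK sham than in PP sham. Of the 13 on the list, all tested, 10 fell in PPK sham, 1 rose and 2 did not pass, with a median log2 fold change of -1.07 against -0.015 for all tested genes, where 14.9% of tested genes were lower. Tgm4, the prostate transglutaminase gene, stood at 66.8 and 66.5 FPKM in PP sham and 0.899 and 0.891 in PPK sham (-5.16 ± 0.079). Msmb, a microseminoprotein gene, stood at 69.5 and 67.1 against 10.9 and 10.5 FPKM (-2.56 ± 0.062), Rnase1, a secreted ribonuclease gene, at 90.3 and 89.6 against 2.75 and 2.81 (-4.59 ± 0.056), and Tcaf3 at 89.7 and 91.7 against 0.840 and 0.999 (-5.58 ± 0.075; limma adjusted p of these 4 at most 3.31e-06). Tgm4 and Tcaf3 were below 1 FPKM outside PP sham, so they passed the filter through PP sham alone. The filter thus fixed the direction of these 2 genes, which are within the 10 and the median. The gene that rose was Apof, an apolipoprotein gene, at 28.6 and 29.7 against 44.1 and 45.0 FPKM (0.60 ± 0.070, limma adjusted p = 0.00122). Scgb1b20, Scgb2b20 and Scgb1b3, at 0 under ADT like Msmb and Tcaf3, did not move with most of this list in PPK sham. Their side of that contrast was fixed by how they were picked.

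Under ADT with age all 13 fell in PP, where 25.1% of tested genes were lower, and 12 fell and 1 rose in PPK, where 30.7% were lower. The count in PP includes Tgm4 and Tcaf3, whose direction the filter fixed there too. The balance over all genes in PP depended on the scaling: 2667 genes were higher and 3518 lower, but 3170 and 2878 with median-of-ratios scaling. Pbsn, the probasin gene, was at 0 in all 4 ADT libraries after 377 and 356 FPKM in PP sham and 35.8 and 27.7 in PPK sham. The gene that rose in PPK was Rnase1, at 12.2 and 12.6 FPKM in PPK ADT (1.82 ± 0.056, limma adjusted p = 6.07e-07).

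**Figure D4:**
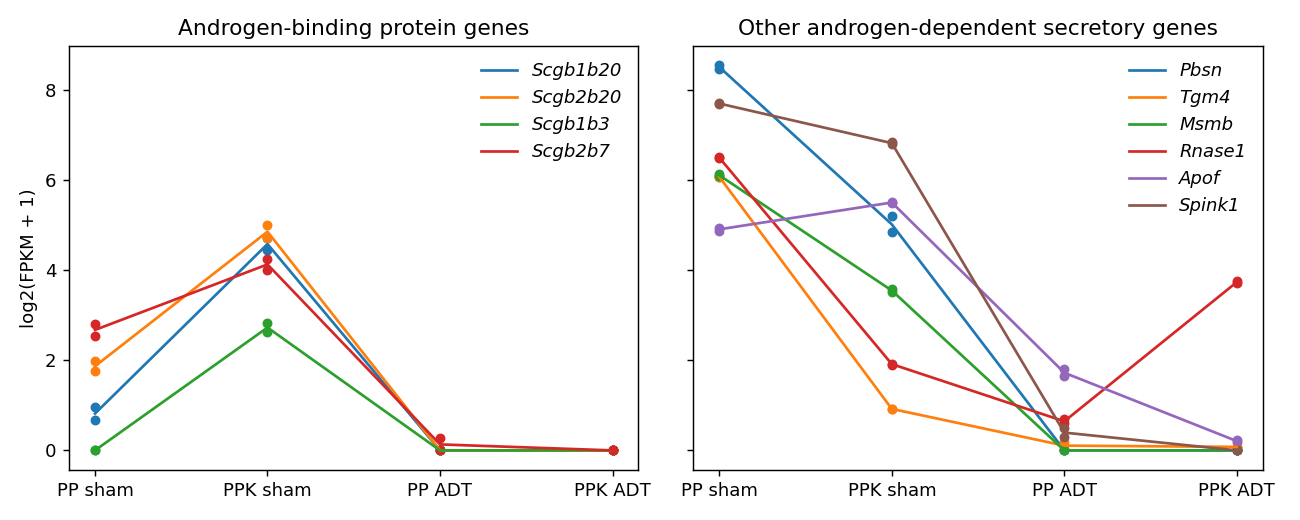
Log2(FPKM + 1) (y axis) of 4 androgen-binding protein genes (left) and 6 other androgen-dependent secretory genes (right) in the 4 groups (x axis); points are the 2 libraries and lines join group means. On the left all 4 are higher in PPK sham than in PP sham, and on the right Apof alone is. Pbsn and Msmb are at 0 under ADT, as Scgb1b20, Scgb2b20 and Scgb1b3 are.

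Steroid receptors and androgen target genes mostly did not pass between the sham groups. Of the 6 on the list reported here 5 were tested: in PPK sham 1 fell and 4 did not pass, beside 14.9% of all tested genes lower. The gene that fell was Esr1, the estrogen receptor alpha gene, from 3.91 and 3.55 to 2.18 and 2.04 FPKM (-0.60 ± 0.10, limma adjusted p = 0.00586). Under ADT with age 4 of the 5 fell and 1 rose in PP, beside 25.1% of all tested genes lower and 19.1% higher, and 3 fell and 2 rose in PPK, beside 30.7% lower and 31.9% higher. The targets Fkbp5, a receptor co-chaperone gene, and Tmprss2, a protease gene, fell by 2.82 and 1.48 on the log2 scale in PP and by 2.57 and 2.82 in PPK, and Hoxb13, a homeobox gene, fell by 2.08 and 3.32 (limma adjusted p of these 6 at most 2.91e-05). Esr1 rose in both genotypes (1.37 ± 0.10 in PP and 1.82 ± 0.10 in PPK, limma adjusted p at most 8.41e-05). Nr3c1, the glucocorticoid receptor gene, fell in PP (-0.36 ± 0.087, limma adjusted p = 0.0157), a call lost without PP sham replicate A (0.0827) or PP ADT replicate A (0.0726), and rose in PPK (0.51 ± 0.087, limma adjusted p = 0.00231). Unlike Scgb1b20, Scgb2b20 and Scgb1b3, the 3 targets stayed above 0 under ADT, with Tmprss2 at 38.0 to 39.1 FPKM in PP ADT and 14.3 to 14.5 in PPK ADT, a difference of -1.36 ± 0.036 between the genotypes (limma adjusted p = 4.3e-07), where 27.1% of tested genes were lower.

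Regulators known to act on secretoglobin genes, mostly from work on the airway, were mixed. Of 11 listed 9 were tested: in PPK sham 2 rose, 4 fell and 3 did not pass, median -0.17, beside 13.7% of all tested genes higher and 14.9% lower. Nkx2-1, the lung factor that drives Scgb1a1, was at 0 in all 8 libraries, and Foxa2 was at most 0.344 FPKM. Elf3, an epithelial ETS factor gene, was abundant and rose from 385 and 391 to 517 and 530 FPKM (0.43 ± 0.024, limma adjusted p = 5.73e-05). Cebpd (-0.68 ± 0.072), Cebpa (-0.37 ± 0.044) and the ETS factor gene Elf5 (-0.74 ± 0.097) fell (limma adjusted p at most 0.00192).

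Scgb1a1 was read in both PPK groups, at 1.16 and 1.13 FPKM in PPK sham and 0.805 and 1.39 in PPK ADT. Cebpa encodes a C/EBP factor that acts on the Scgb1a1 promoter. Cebpa was lowest in PPK sham and highest in PPK ADT, at 71.6 and 71.0 FPKM in the latter. It was at 11.2 and 11.6 in PP ADT and 5.23 and 5.09 in PPK sham, log2 fold changes of 2.55 ± 0.044 and 3.55 ± 0.044 (limma adjusted p at most 9.09e-08), where 32.5% and 31.9% of tested genes were higher, and 0.64 ± 0.044 in PP ADT against PP sham (limma adjusted p = 5.68e-05), where 19.1% of tested genes were higher. The part of Cebpa in the Scgb1a1 level was not tested. Nfib fell in PPK ADT against PPK sham (-1.65 ± 0.046) and PP ADT (-1.25 ± 0.046), and Foxa1 against PPK sham (-0.76 ± 0.031; limma adjusted p at most 2.22e-06).

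Of 7 binding partners and receptors reported for secretoglobins 3 were tested. Fn1, the fibronectin gene, whose product binds the Scgb1a1 protein, stood at 5.12 and 5.14 FPKM in PP sham, 12.6 and 12.1 in PPK sham, 4.33 and 4.38 in PP ADT, and 16.7 and 16.2 in PPK ADT. It was higher in PPK than in PP in sham (1.12 ± 0.050) and in ADT mice (1.71 ± 0.050), and in PPK ADT than in PPK sham (0.39 ± 0.050; limma adjusted p at most 0.00063). Lgals3, the galectin-3 gene, went from 236 and 212 to 162 and 171 FPKM between the sham groups (-0.42 ± 0.081, limma adjusted p = 0.00934), and the call was lost without PP sham replicate A (adjusted p = 0.0527) or PPK sham replicate A (0.0549). The lipocalin receptor gene Lmbr1l did not pass in sham mice.

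Among 7733 candidate genes, the pattern most like that of Scgb1b20 over the 8 libraries was that of Klk1, a tissue kallikrein gene (r = 0.99 of log2 levels), at 5.75 and 4.75 FPKM in PP sham, 192 and 187 in PPK sham and 0.740 to 1.55 in ADT. Arf6, Svs6, Elf3 and Mpzl1 followed. For Scgb2b20 the order was Elf3, AC102496.1, Klk1, Atmin and Psma6 (0.98 to 0.99), and for Scgb1b3 it was Svs6, Arf6, Epm2aip1, Mpzl1 and Ctsz (0.97 to 1.00). Scgb1a1 was most like Serpina3n, Man1a, Col3a1, Smc4 and Ajuba (0.96 to 0.98), all higher in both PPK groups. With 1 group high and 3 low, a correlation over 8 libraries is a description of that shape.

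Markers of other tissues moved with some of these genes. In the seminal vesicle list of 8, of which 7 were tested, Svs1, Svs3a, Svs3b and Svs6 were at 0 in PP sham and in ADT and above 0 in PPK sham, as Scgb1b3 was, with Svs6 at 5.10 and 5.20 FPKM. Svs4 was higher in PPK sham (77.0 and 73.6 against 13.1 and 13.0 FPKM), while the abundant Svs2 and Svs5 were lower. The summed level was 1273 to 1277 FPKM in PP sham, 564 to 569 in PPK sham, 0.953 to 2.38 in PP ADT and 6.32 to 6.67 in PPK ADT. Svs3a, Svs3b and Svs6 passed the filter only through PPK sham, so no count of the list is given, and the part of these genes in the secretoglobin levels was not tested. The salivary and lacrimal list, from the glands where androgen-binding protein is best known, summed to 67.2 to 68.9 FPKM in PP sham and 25.5 to 26.6 in PPK sham, with 0 of 7 tested genes higher and 6 lower, beside 13.7% and 14.9% of all tested genes. Of the 6, Amy1, Prol1 and Lpo passed the filter only through PP sham, and Dcpp1, Dcpp2, Dcpp3 and Esp1 were at 0 in every library.

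The counts of the next lists are for PPK sham against PP sham, where 13.7% of all tested genes were higher and 14.9% lower. Markers of club and proximal luminal epithelium of the prostate, 14 listed and tested, rose in 10 and fell in 3, with sums of 4236 to 4317 FPKM in PP sham, 5162 to 5196 in PPK sham, 4270 to 4373 in PP ADT and 3043 to 3137 in PPK ADT. Of the 10 airway club cell markers 5 were tested: Cbr2, Gabrp and Aldh1a1 rose and Cyp2f2 and Hp fell. Cyp2f2 stood at 240 to 638 FPKM and Cbr2 at 535 to 984 over the 8 libraries, whereas Bpifb1 and Scgb3a2 were at 0 in all. The list summed to 1009 to 1033 FPKM in PP sham, 1188 to 1195 in PPK sham, 1844 to 1900 in PP ADT and 1168 to 1184 in PPK ADT. Beside Scgb1a1, the fibroblast list of 6 summed to 5.55 to 5.85 FPKM in PP sham, 17.0 to 17.7 in PPK sham, 4.54 to 4.61 in PP ADT and 28.8 to 30.0 in PPK ADT, none of them at 0 in a group, and basal markers summed to 5720 to 5789 FPKM in PPK ADT against 808 to 1323 elsewhere. Krt15, at 698 to 1279 FPKM, made up most of the basal sum outside PPK ADT. Krt5 and Krt14 were at most 96.8 and 22.4 FPKM there, and at least 3242 and 1504 FPKM in PPK ADT. Of the 5 tested fibroblast genes 4 rose, and of the 4 basal genes Krt14 and Krt15 rose, Krt5 fell and Trp63 did not pass. Of the other lists, macrophage genes (8 listed, 6 tested) rose in 5 and fell in 1, with sums of 64.5 to 64.8 FPKM in PP sham, 131 to 133 in PPK sham, 133 to 142 in PP ADT and 51.4 to 52.6 in PPK ADT. Against PP sham, Cd14 (mean 15.0 against 41.5 FPKM) and Mrc1 (0.384 against 7.51) lowered the PPK ADT sum. Adgre1, Csf1r, Cd68, C1qa, C1qb and Lyz2 had higher means in PPK ADT than in PP sham. Both tested neutrophil and both tested smooth muscle genes rose. Of the 2 tested endothelial genes Cdh5 passed the filter only through PPK sham and Pecam1 did not pass the test. Of the 5 luminal genes reported here 3 rose and 1 fell, and none of 7 lymphocyte genes reached the filter. The part of these cells in the secretoglobin levels was not tested.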

How the data were processed

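Per the labels' protocols, total RNA was extracted with Trizol and strand-specific TruSeq libraries were made. The authors deposited 1 table of FPKM values per library. Per the submitters' processing notes, FastQC 0.11.2 and the build mm10 were used. Of the aligner, quantifier, annotation and handling of reads that match several genes, the sources used here say nothing. Values below 1 fragment occur, so whole reads could not be recovered. Of low values in genes with 1 transcript, 17.5 to 19.5% lay within 0.05 of a whole fragment, so fragment estimates are rough.

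The 8 tables were joined on 55335 identifiers, and GENCODE M21 (GRCm38) gave 55154 of them a symbol. Genes of at least 1 FPKM in at least 2 libraries (14000) were fitted as log2(FPKM + 1), which understates changes of low genes, with limma 3.58.1 in R 4.3.3: 4 group means, a mean-variance trend, Benjamini-Hochberg adjusted p under 0.05, two-sided, in 5 comparisons. The fit was tested on simulated data. Values after ± are SE for log2 fold changes and SD (n = 2) for levels. Of the 5 genes followed, 4 passed the filter, and Scgb3a1 did not. Transcript stretches and motifs were counted with Python 3.11.15. Between the 2 libraries of a group, genes of over 1000 estimated fragments differed by 1.58 to 2.06 times counting noise.

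Named were the 5 genes, other Scgb genes of at least 1 FPKM, Kmt2c, up to 4 genes per list with the smallest adjusted p that passed, some of them left out for room, and the 5 most alike genes of at least 5 FPKM in a group. For the difference of genotype effects, every passing gene of the lists that was above 0 in a library of each group was named. This choice was made after their values were seen. Pbsn, Apof in sham mice and genes said to be so were named after their values were seen. The genes and the lists were chosen with earlier results of these data known. Some genes of the lists are not reported here, and list counts leave them out. Organoid experiments were not analysed here.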

Additional observations from a re-analysis of the deposited data

Results flagged for a closer look

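The secretoglobin genes are not among these results: groups of 2 are too small to single out a library, and the chromosome 7 genes are at or near 0 in ADT. Of the tested genes of the 4 gene lists (regulators, receptors and targets, secretory genes, binding partners), 25 were above 0 in a library of each group, and 22 of these 25 had a genotype effect that differed between sham and ADT mice (limma, adjusted p of the difference under 0.05). The share among all tested genes, which did not have to be above 0 in each group, was 52.8%. In brackets stand the difference of log2 effects, ADT minus sham, its SE and its limma adjusted p.

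Of the regulators, Cebpa (2.91 ± 0.062, adjusted p = 3.75e-07), Elf5 (2.53 ± 0.14, 1.44e-05) and Ehf (0.65 ± 0.076, 0.000524) turned from lower to higher in PPK. The effect on Nfib (-1.45 ± 0.065, 6.31e-06), Foxa1 (-0.57 ± 0.043, 6.94e-05), Elf3 (-0.36 ± 0.034, 0.000202), Spdef (-1.004 ± 0.16, 0.00244), Cebpb (0.29 ± 0.074, 0.0171) and Cebpd (0.33 ± 0.10, 0.0321) differed too. Among receptors and their targets this held for Tmprss2 (-1.35 ± 0.051, 3.21e-06), Hoxb13 (-1.24 ± 0.17, 0.00123), Nr3c1 (0.87 ± 0.12, 0.00129) and Esr1 (0.44 ± 0.14, 0.0393).

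Among secretory genes it held for Rnase1, lower in PPK sham and higher in PPK ADT than in PP (7.68 ± 0.079, 2.95e-08), Tgm4 (5.13 ± 0.11, 4.06e-07), Mmp7 (-1.61 ± 0.038, 5.15e-07), Apof (-2.12 ± 0.098, 7.46e-06), Defb50 (4.52 ± 0.35, 7.76e-05), Pate4 (2.55 ± 0.30, 0.000533) and Azgp1 (0.60 ± 0.20, 0.0448). Of the binding partners, Lgals3 (-1.07 ± 0.11, 0.000331) and Fn1 (0.58 ± 0.071, 0.000664) differed. The calls for Cebpb, Cebpd, Esr1 and Azgp1 were lost under several alternatives. Tgm4 was at or below 0.133 FPKM in ADT, so its difference rests on the sham libraries.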

How the results depend on the processing

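The log2 difference of Scgb1b20 between the sham groups (3.77) became 4.76 with a pseudocount of 0.1 FPKM, and that of Scgb2b20 (2.99) became 3.35; leaving out a library gave 3.62 to 3.92 and 2.84 to 3.14. Without a PPK sham library Scgb1b20 falls under the filter and has no value. The share of stretches found in no other gene rose with 100 bases, an alternative added after seeing the data.

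Of 823 values of 60 other single-gene results under the alternatives, 783 kept their direction and side of the threshold, 36 lost the call, 2 gained it and 2 turned. Those 2 were the Sbp difference of genotype effects, -0.11 with adjusted p = 0.861, at 0.14 with a pseudocount of 0.1 FPKM and 0.46 without PPK sham replicate A (adjusted p = 0.019), against -0.68 without PPK sham replicate B (0.00464); the libraries of PPK sham stood at 1082 and 489 FPKM, and the cause was not tested. With the letters as a replicate block, the Cebpd difference of genotype effects lost its call (adjusted p = 0.0526), and 3755, 8182, 6013, 8626 and 7186 genes were called, in the order PPK sham against PP sham, PPK ADT against PP ADT, PP ADT against PP sham, PPK ADT against PPK sham, and the difference of genotype effects. Deviations of same-letter libraries correlated at -0.0079 to 0.057, so the letters were not taken as pairs.

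The main counts were 4000, 8340, 6185, 8765 and 7395 in the same order. Without 1 library they ranged over 2649 to 3778, 6691 to 8272, 4649 to 6091, 7106 to 8621 and 6059 to 6719, the lowest of the first without PP sham replicate A; the cause was not tested. At a mean of at least 5 FPKM, with fewer genes tested (7092), the last 4 were 4918, 3933, 5056 and 4476. With median-of-ratios scaling, the share of higher calls moved by at most 9.29 points, the most in PP ADT against PP sham, where it passed 50%. Fragment numbers, 5.02 or fewer for Scgb3a1, limit what can be said of the low genes.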
